A study of Oncorhynchus mykiss with 38 samples.

Results

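Signals of cct8 and CCT5, genes of 2 subunits of the cytosolic chaperonin, were followed over 38 nylon cDNA arrays of rainbow trout testis. They were represented by 3 of the 9024 clones with values: both clones to which the array description gives the symbol cct8, 1rt36f13_b_c07 and tcay0033.j.13, and clone tcad0008.m.18, taken as CCT5 from the study's supplementary table. Whole testes of farmed male trout had been staged by histology. Stage I (n = 5) held type A spermatogonia alone, and stages IIa and IIb (n = 4 each) also dividing type B spermatogonia. Stage IIIb (n = 3) also held meiotic spermatocytes, stage V (n = 4) spermatids and stage VIII (n = 3) mostly spermatozoa. The paper states that spermatozoa hold very little RNA, and proposes that stage VIII signals likely come from somatic cells. Fractions enriched in spermatogonia (n = 6), spermatocytes (n = 6) and spermatids (n = 3) came from collagenase-digested, pooled testes, immature ones for spermatogonia and early maturing ones for the later cells. These fractions were not pure, and some Sertoli cells remained among the spermatogonia. Only the fractions were digested and shaken overnight, so cell type and isolation cannot be told apart in any comparison of a fraction with a whole testis. The strain and age of the fish are not given in the sources used here, and nothing states that replicates were separate animals or cell preparations, so the p-values reflect only how far these arrays differed from each other.

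The chaperonin CCT, also called TRiC, is a barrel of stacked rings in the cytosol of eukaryotes, each ring built from different but related subunits that are encoded by separate genes. It binds newly made polypeptides and uses ATP to close over them while they fold. Actin and tubulin are its best known clients, and dividing germ cells and elongating spermatids both depend on tubulin, for the spindle, the manchette and the flagellum. Subunit theta is encoded by cct8 and subunit epsilon by CCT5.

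The identity of the CCT5 clone is less certain than that of the cct8 clones. The supplementary table prints CCT5 beside a clone named tcad0008.n.17, for which 0 entries of the value table held values. Its values matched those of tcad0008.m.18 within 0.00485 in all 22 columns compared, whereas the next closest clone, tcay0001.i.13, differed by up to 0.576. These columns were all of whole testes, so no fraction was compared. Only 229 entries were compared in this way, far fewer than the differentially expressed clones that the paper lists. Of these 229, 224 matched a clone of the same name and 5 a clone of another name. The array description gives tcad0008.m.18 no symbol, and CCT5 below stands for this clone.

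All values are deposited log2 signals, normalised so that every array had the same median, 8.166, the level the methods take as background. A change between groups is therefore relative to the other clones on the array. The number of arrays limited the precision, and no value was missing for the 3 clones. Spermatid replicate 3 stood apart, with the lowest mean correlation with the other 37 arrays (0.741, against 0.774 to 0.893 for the others). Spermatid replicate 2 had the lowest mean correlation with its own group once clones were centred (0.06, against 0.30 for replicate 3). Values without replicate 3 thus rest on replicates 1 and 2 for spermatids. For the 3 chaperonin clones, changes between groups that rest on replicate 3 are given with and without it. Changes of single clones of other genes are given with replicate 3 only, and likeness to other genes was computed with it only.

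Both cct8 clones were bright, with signals over the array median on all 38 arrays. In whole testes before spawning, 1rt36f13_b_c07 had log2 signals of 10.77, 10.89, 11.08, 10.79 and 10.88 in stage I, 10.77, 11.09, 11.19 and 11.39 in stage IIa, and 11.18, 11.37, 11.09 and 11.18 in stage IIb. Stage IIIb gave 11.30, 11.07 and 11.18 for this clone, and stage V gave 10.94, 11.38, 11.15 and 11.21. These 20 arrays thus lay close together, and the 3 spawning testes of stage VIII lay below all of them, at 9.92, 9.79 and 9.61. Spermatogonia ranged from 11.62 to 12.51 (median 12.04, n = 6), spermatocytes from 10.55 to 11.33 (median 10.98, n = 6), and the 3 spermatid arrays had 11.02, 11.46 and 9.99. All 6 spermatogonia arrays were above each of the other 32, which was so for 0.34% of the 8834 clones without missing values. The 3 stage VIII arrays were below each of the other 35, as were those of 2.86% of these clones.

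The clone tcay0033.j.13 gave the same picture on a separate spot. Its log2 signals were 11.00, 10.86, 10.66, 10.54 and 10.94 in stage I, 10.71, 10.85, 10.73 and 11.01 in stage IIa, and 11.25, 11.17, 10.96 and 11.19 in stage IIb. Stage IIIb gave 11.13, 10.83 and 10.68, stage V gave 11.09, 10.97, 10.79 and 10.72, and stage VIII was again low at 9.75, 9.83 and 9.54. Spermatogonia again stood highest, at 11.34 to 12.40 (median 11.87), followed by spermatocytes at 10.46 to 11.36 (median 10.80) and the spermatid arrays at 10.89, 11.33 and 9.80. Here 5 of the 6 spermatogonia arrays exceeded all other arrays, and the sixth, at 11.34, lay just under 1 spermatocyte array at 11.36. Of the stage VIII arrays, 2 were below all others and the third, at 9.83, was above spermatid replicate 3. Without that replicate all 3 were lowest.

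**Figure D1:**
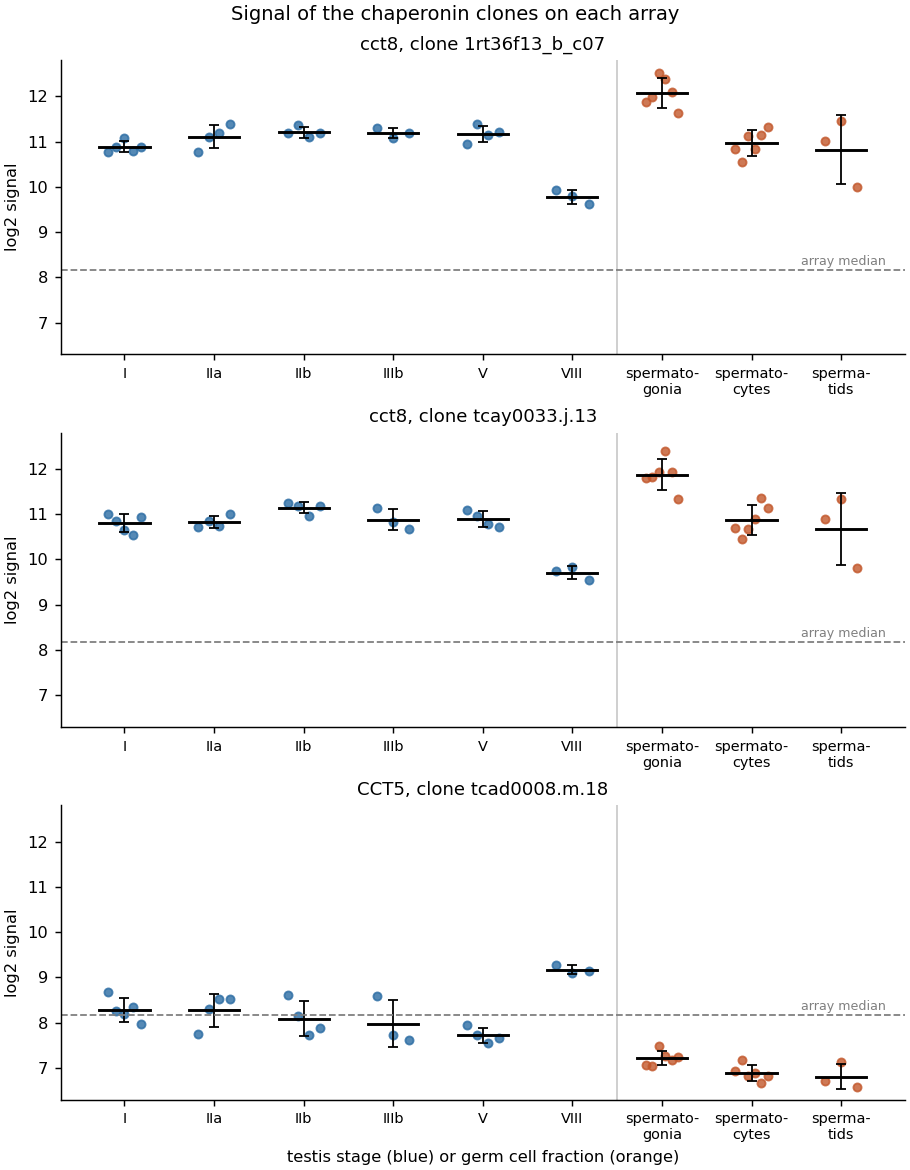
Log2 signal of each chaperonin clone (vertical axis) on every array (points), by testis stage in blue and germ cell fraction in orange (horizontal axis), with the group mean and SD as lines and the array median as a dashed line. Both cct8 clones peak in spermatogonia (means 12.08 and 11.87) and are lowest in stage VIII (means 9.77 and 9.71), whereas the CCT5 clone is highest in stage VIII (mean 9.17) and under the array median on all 15 fraction arrays.

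Across the 9 groups all 3 clones passed the moderated F-test of limma at an adjusted p of 0.005, as did 44.2% of all clones. The adjusted p was 4.2e-09 for 1rt36f13_b_c07 (F = 17.4), 5.5e-08 for tcay0033.j.13 (F = 14) and 3.7e-12 for CCT5 (F = 30.7). The group means of these clones spanned 2.30, 2.16 and 2.36 log2 units. Without spermatid replicate 3, the 3 F values were 25.7, 20.5 and 28.9, and the test was passed again.

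Spermatogonia had more cct8 signal than the immature testes from which such cells were prepared. The mean of 1rt36f13_b_c07 was 12.08 ± 0.33 in spermatogonia and 10.88 ± 0.12 in stage I (SD, n = 6 and 5), a difference of 1.19 (SE 0.17, 2.29-fold, adjusted p = 2.2e-06 in limma). For tcay0033.j.13 the means were 11.87 ± 0.34 and 10.80 ± 0.19, with a difference of 1.07 (SE 0.18, 2.09-fold, adjusted p = 3.1e-05). In this comparison 26.6% of all clones passed, and the ranges of both cct8 clones did not overlap, as was so for 9.04% of clones that were higher. A bulk signal cannot tell fewer cells of a type from less RNA per cell. CCT5 went the other way, as described below.

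Later germ cells had less cct8 signal than spermatogonia. The mean of 1rt36f13_b_c07 was 10.97 ± 0.28 in spermatocytes against 12.08 ± 0.33 in spermatogonia (SD, n = 6 each), a change of -1.11 (SE 0.17, adjusted p = 4.5e-06), and the ranges did not overlap. For tcay0033.j.13, with 10.87 ± 0.33 in spermatocytes and 11.87 ± 0.34 in spermatogonia, the change was -1.0 (SE 0.18, adjusted p = 4.4e-05), with ranges overlapping by 0.02. Of all clones 26.9% passed here, and 6.74% were lower in spermatocytes without overlap. Spermatids averaged 10.83 ± 0.75 for 1rt36f13_b_c07 and 10.68 ± 0.79 for tcay0033.j.13 (SD, n = 3), by far the widest spreads of any group. Their changes from spermatogonia were -1.25 (SE 0.20, adjusted p = 5e-05) and -1.19 (SE 0.21, adjusted p = 0.00013), where 21.3% of all clones passed. Without spermatid replicate 3 these changes were -0.83 (adjusted p = 0.0065) and -0.76 (adjusted p = 0.018), and both still passed, the spermatid means then being 11.24 and 11.11 (n = 2). Over all choices of 1 array left out, the changes ran from -1.57 to -0.83 and from -1.52 to -0.76. Spermatids and spermatocytes did not differ beyond their spread, with changes of -0.14 (95% interval -0.56 to 0.27) and -0.19 (-0.63 to 0.24), where 0.0665% of all clones passed. These changes turned sign without spermatid replicate 3, to 0.27 (adjusted p = 0.78) and 0.24 (adjusted p = 0.83).

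Spawning testes had the least cct8 signal. In stage VIII the mean was 9.77 ± 0.15 for 1rt36f13_b_c07, against 11.17 ± 0.18 in stage V and 10.88 ± 0.12 in stage I (SD, n = 3, 4 and 5). This clone fell by 1.40 relative to stage V (SE 0.22, adjusted p = 4e-06) and by 1.11 relative to stage I (SE 0.21, adjusted p = 0.00016). The other clone, at 9.71 ± 0.15 in stage VIII, fell by 1.19 relative to stage V (SE 0.23, adjusted p = 1e-04) and by 1.1 relative to stage I (SE 0.22, adjusted p = 0.00034). The background of these comparisons was high, since 37.4% of all clones passed between stages VIII and V and 24.3% between stages VIII and I, and 25.2% and 17.5% were lower in stage VIII without overlap. The widest gap was that between spermatogonia and spawning testes, of 2.30 (4.94-fold, adjusted p = 2.1e-11) and 2.16 (4.48-fold, adjusted p = 3e-10), where 42.7% of all clones passed.

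Between these extremes no change in cct8 signal passed, although so few arrays per group cannot show that the signal was level. Of the 36 pairs of groups, the 15 that contain spermatogonia or stage VIII all passed for each cct8 clone, and of the 21 pairs among the other 7 groups 0 passed for either, with or without spermatid replicate 3. Over all clones 26.6% of the tests in these 15 pairs passed and 15.5% of those in the other 21. The pairs were split at the highest and lowest groups of the cct8 clones themselves and share arrays. These counts therefore describe the order of means and are no separate test. The means of these 7 groups spanned only 0.38 log2 units for 1rt36f13_b_c07 (10.83 to 11.20) and 0.47 for tcay0033.j.13 (10.68 to 11.15). The order of means thus began with spermatogonia, 0.87 (adjusted p = 0.0011) and 0.72 (adjusted p = 0.011) above stage IIb, which came next for both clones (12.1% of all clones passed). It ended with stage VIII, 1.05 (adjusted p = 0.00059) and 0.97 (adjusted p = 0.0024) under spermatids, a pair in which 33.5% of all clones passed. Without spermatid replicate 3 these last gaps were 1.47 and 1.41, and the order changed: spermatids then lay 0.04 above stage IIb for 1rt36f13_b_c07 and 0.03 under it for tcay0033.j.13, and stage I was the neighbour of stage VIII. The onset of meiosis, stage IIIb against stage IIb, changed 1rt36f13_b_c07 by -0.02 (95% interval -0.47 to 0.43) and tcay0033.j.13 by -0.27 (-0.74 to 0.20), while 7.04% of all clones passed. Between stages V and IIIb the changes were -0.01 (-0.46 to 0.43) and 0.01 (-0.46 to 0.48), and 0% of clones passed in limma (478 of 9024 did at an unadjusted p under 0.05). Stage V testes also did not differ from stage I beyond the spread, with 0.29 (-0.11 to 0.68, adjusted p = 0.28) and 0.09 (-0.32 to 0.50, adjusted p = 0.79), although 30.9% of all clones passed there.

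**Figure D2:**
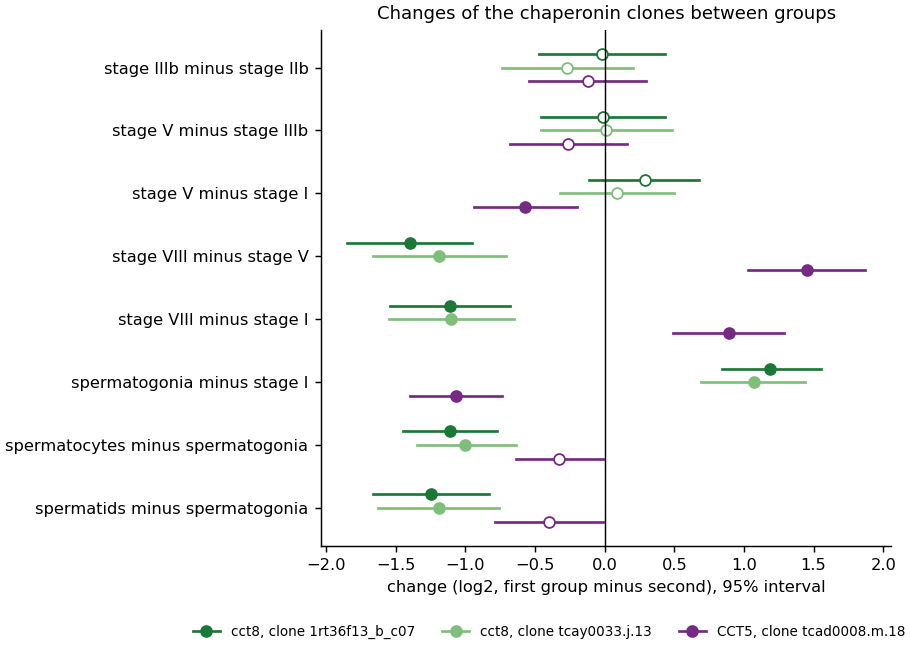
Change in log2 signal, first group minus second (horizontal axis), in the 8 main comparisons (vertical axis) for the 3 chaperonin clones, with bars for 95% intervals and filled points for an adjusted p under 0.05. The cct8 clones move together, by 1.19 and 1.07 in spermatogonia minus stage I and by -1.40 and -1.19 in stage VIII minus stage V, and CCT5 moves by -1.07 and 1.45 in these comparisons.

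The clones of cct8 followed each other closely. Their 9 group means correlated at r = 0.99, and among the 9023 other clones tcay0033.j.13 ranked second in likeness to 1rt36f13_b_c07, while 1rt36f13_b_c07 ranked first in likeness to tcay0033.j.13. On single arrays 1rt36f13_b_c07 minus tcay0033.j.13 was 0.16 ± 0.20 (SD, n = 38), from -0.23 to 0.57. Deviations from the group means, which leave out differences between groups, were also shared, with r = 0.78 (permutation p = 1e-05, the smallest that 100000 permutations can give, and 2e-05 adjusted over 2 relations) and rho = 0.59 (permutation p = 0.00014, adjusted 0.00028). Without spermatid replicates 3 and 2, the arrays farthest from the median, r was 0.61 (permutation p = 7e-05). Arrays were permuted without regard to group, although the groups differed in spread, so these p-values are approximate.

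CCT5 had weak signals, close to background or under it in all groups but stage VIII. Its log2 signals were 8.67, 8.25, 8.18, 8.34 and 7.96 in stage I, 7.75, 8.30, 8.53 and 8.52 in stage IIa, and 8.60, 8.14, 7.73 and 7.89 in stage IIb. They were 8.58, 7.73 and 7.62 in stage IIIb, and stage V had 7.94, 7.73, 7.54 and 7.65. The 3 spawning testes, at 9.28, 9.09 and 9.13, were above each of the other 35 arrays, as those of 4.49% of clones were. In spermatogonia the clone ranged from 7.05 to 7.48 (median 7.21), in spermatocytes from 6.67 to 7.18 (median 6.85), and the spermatid arrays had 6.72, 7.12 and 6.58. It was under the array median on all 15 fraction arrays, on 11 of the 20 arrays of stages I to V and on 0 of 3 in stage VIII.

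In spawning testes CCT5 was higher than at any earlier stage. The mean was 9.17 ± 0.10 in stage VIII, against 7.71 ± 0.17 in stage V and 8.28 ± 0.26 in stage I (SD, n = 3, 4 and 5), and it rose by 1.45 relative to stage V (SE 0.21, adjusted p = 7.4e-07) and by 0.89 relative to stage I (SE 0.20, adjusted p = 0.00098). In both comparisons the ranges did not overlap, as was so for 23.8% and 13.9% of clones that were higher in stage VIII. With the array median as a floor, so that no signal counted as less than background, the rises were 1.00 (adjusted p = 6.6e-09) and 0.85 (adjusted p = 1.1e-07). All 8 pairs that contain stage VIII passed, where 32.4% of all tests of a clone in such a pair did.

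The fractions had less CCT5 signal than whole testes of stages I to V, and all 15 such pairs passed, against 19.7% of all tests in these pairs. Spermatogonia averaged 7.21 ± 0.16 and stage I testes 8.28 ± 0.26, a change of -1.07 (SE 0.16, adjusted p = 5e-06) with no overlap, as for 8.93% of clones that were lower. With the floor at the array median this change was -0.15 (adjusted p = 0.24) and did not pass, so it lay mostly within the range taken as background. Among the fractions 0 of 3 pairs passed (16.1% of all tests did), with changes of -0.33 (95% interval -0.64 to -0.01, adjusted p = 0.12) in spermatocytes relative to spermatogonia and -0.40 (-0.79 to -0.01, adjusted p = 0.13) in spermatids relative to spermatogonia. Without spermatid replicate 3 the spermatid change was -0.29 (adjusted p = 0.48), and without spermatid replicate 2 it was -0.56 and passed (adjusted p = 0.047). Leaving out spermatid replicate 3 also ended 1 of the 15 calls, that of spermatids against stage V (-0.79, adjusted p = 0.071).

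At stage V the CCT5 signal was a little lower than at the earliest stages. It fell by 0.57 relative to stage I (SE 0.18, adjusted p = 0.016), with ranges that did not overlap, as in 17.9% of clones lower in stage V. This call was lost without stage I replicate 1 (-0.47, adjusted p = 0.058), without stage V replicate 3 (-0.51, adjusted p = 0.056), and under the floor at the array median (-0.15, adjusted p = 0.29). It also fell by 0.56 in stage V relative to stage IIa (adjusted p = 0.024), where 29.5% of all clones passed. These were 2 of the 10 pairs within stages I to V, in which 12.1% of all tests passed. The changes at stage IIIb against stage IIb (-0.12, 95% interval -0.54 to 0.30) and at stage V against stage IIIb (-0.26, -0.68 to 0.16) did not pass. Ordered by mean, CCT5 thus began with stage VIII, 0.89 above stage I (adjusted p = 0.00098, with 24.3% of all clones passing). Stages I, IIa, IIb, IIIb and V followed, and neighbours among them did not differ beyond their spread. Spermatogonia came next, 0.50 under stage V (adjusted p = 0.035, with 21.7% of all clones passing), and then the later fractions. All arrays of stage V and of the fractions were under the array median, so the order among these groups lies within background.

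The different course of both genes was tested on single arrays, as the mean of the cct8 clones minus CCT5. The size of this difference depends on the clones, so only its changes are read. Wherever CCT5 is under the array median, part of a change lies within the range taken as background, and each change is therefore also given with the floor. It was 4.76 ± 0.29 in spermatogonia and 2.56 ± 0.29 in stage I (SD, n = 6 and 5), larger by 2.20 and without overlap (exact two-sided permutation test, p = 0.0043, the smallest this design allows, 0.026 adjusted over 6 comparisons). CCT5 was under the array median on all 6 spermatogonia arrays, and with the floor the change was 1.28 (adjusted p = 0.013), most of it that of the cct8 clones. In spermatocytes it was 4.04 ± 0.44 against 4.76 ± 0.29 in spermatogonia, a change of -0.73 (exact p = 0.0087, adjusted 0.026), or -1.05 with the floor (adjusted p = 0.013). In stage V it was 3.32 ± 0.17 against 2.56 ± 0.29 in stage I, a change of 0.75 (exact p = 0.016, the smallest possible, adjusted 0.032). CCT5 was under the array median on all 4 stage V arrays, so much of this change lay within background, and with the floor it was 0.34 (adjusted p = 0.032). With 1 array fewer it was 0.67 to 0.85 with an adjusted p of 0.054 to 0.057, in smaller designs that cannot reach as low a p. In stage VIII the difference was smallest, at 0.57 ± 0.13, against 3.32 ± 0.17 in stage V (change -2.75, exact p = 0.057, adjusted 0.069) and 2.56 ± 0.29 in stage I (change -1.99, exact p = 0.036, adjusted 0.054). With the floor these changes were -2.29 and -1.95. No overlap was seen in either without the floor, yet 3 arrays against 4 or 5 could give no p under 0.057 and 0.036. Between stages IIIb and IIb it changed by -0.03 (exact p = 0.97), or -0.17 with the floor.

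**Figure D3:**
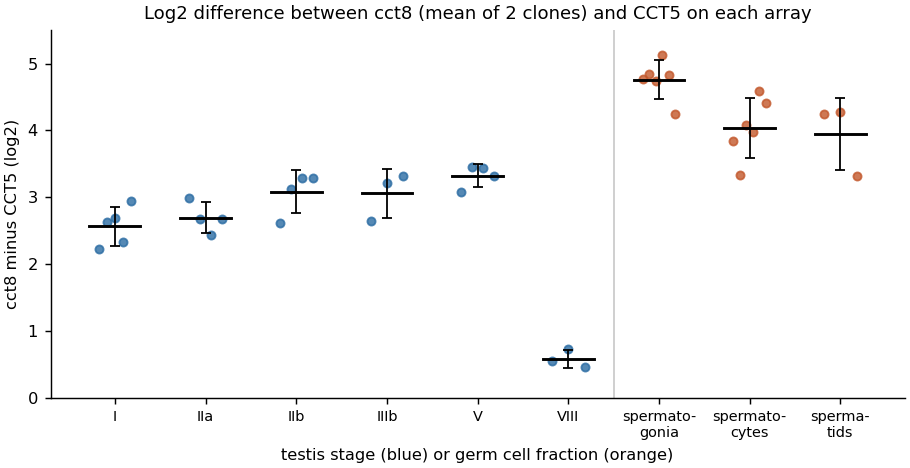
Mean log2 signal of both cct8 clones minus that of CCT5 (vertical axis) on each array (points), by testis stage in blue and germ cell fraction in orange (horizontal axis), with group mean and SD as lines. The difference is largest in spermatogonia (mean 4.76) and smallest in stage VIII (mean 0.57).

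Within groups the relation of cct8 and CCT5 was weak. Over 38 arrays the deviations from the group means gave r = 0.30 (permutation p = 0.066, adjusted 0.066) and rho = 0.34 (permutation p = 0.035, adjusted 0.035). Without spermatid replicates 3 and 2, the arrays farthest from the median of cct8, r was 0.19 (permutation p = 0.27). The rank correlation was not repeated without these arrays. Here too arrays were permuted without regard to group, so the p-values are approximate and no relation is concluded. CCT5 was over the array median on only 12 of the 38 arrays.

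Markers of other cell types moved with the same groups, and their part in these results was not tested. In spermatogonia the mean of the 2 germ line clones, ddx4 and piwil2, was 10.67 to 11.10, against 9.91 to 10.23 in stage I, whereas that of 3 Sertoli cell clones (clu, dmrt1 and sox9) was 7.77 to 8.41 against 9.38 to 9.47, and that of 3 collagen clones 9.61 to 10.60 against 12.11 to 12.52. In stage VIII the germ line mean was 8.72 to 8.89, against 10.05 to 10.13 in stage V, while 5 steroidogenic clones averaged 9.94 to 10.79 against 8.03 to 8.19 and 3 red blood cell clones 12.16 to 12.28 against 8.59 to 9.33. All 3 Sertoli cell, all 3 collagen and 3 of 5 steroidogenic clones fell in spermatogonia relative to stage I, against 13.2% of all clones. In stage VIII relative to stage V all 5 steroidogenic, 2 of 3 Sertoli cell and all 3 red blood cell clones rose. Of all clones 18.1% rose there. In spermatocytes relative to spermatogonia ddx4 (-0.88, adjusted p = 6.9e-05) and piwil2 (-1.16, adjusted p = 1.8e-07) both fell and 4 of 4 clones of spermatid and axoneme genes rose. Of all clones 14.9% fell and 12% rose in this comparison. Clones of nanos2, of early spermatogonia, and amh, of Sertoli cells, were not analysed here. Of the germ line clones ddx4 alone passed in the first 2 comparisons (1.37 and -2.35, adjusted p = 7e-08 and 7.8e-11), and piwil2 changed by 0.27 (adjusted p = 0.18) and -0.24 (adjusted p = 0.34). The cct8 clones thus moved in the direction of ddx4 in these comparisons. CCT5 moved in that of the steroidogenic and Sertoli cell lists in the first 2. The medians of the collagen (-2.37 and 1.16) and red blood cell lists (-0.4 and 3.52) had the signs of CCT5 there. Yet hba1 (-0.40, adjusted p = 0.49) and hba4 (-0.11, adjusted p = 0.85) did not pass in spermatogonia relative to stage I. Collagen clone 1rt65f10_d_c05 did not rise in stage VIII relative to stage V (-0.16, adjusted p = 0.77). In stage VIII relative to stage V sycp3 (-2.89) and the axoneme clones (median -1.52) also fell with cct8. In stage V relative to stage I ddx4 rose by 0.74 and piwil2 fell by 0.74, where neither cct8 clone passed. In stage VIII relative to stage I the Sertoli cell clones were split, as clu fell by 1.97 while sox9 rose by 1.15 and dmrt1 by 0.61. CCT5 rose by 0.89 there, and 3 of 5 steroidogenic clones also rose. Of all clones 11.3% rose and 12.9% fell in this comparison.

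The named genes with the most similar profiles differed between cct8 and CCT5. By correlation of the 9 group means, given as a description, 1rt36f13_b_c07 was nearest to ndufa8 (r = 0.97, a subunit of respiratory complex I), polr1d (0.95, a subunit of RNA polymerases I and III), ncf4 (0.94, a subunit of the phagocyte oxidase), the germ line helicase gene ddx4 (0.92), trmt112 (0.91, a partner of methyltransferases) and taf10 (0.91, a subunit of TFIID). For tcay0033.j.13 the first 6 were polr1d (0.97), ndufa8 (0.95), ncf4 (0.93), trub2 (0.92, a pseudouridine synthase), trmt112 (0.91) and ddx4 (0.89). Within groups ddx4 was the nearest of these, its deviations correlating at r = 0.77 and 0.67 with those of the 2 cct8 clones over 38 arrays, against -0.28 to 0.37 for the others. These correlations were not repeated without spermatid replicate 3, where both cct8 clones deviated most from their group means (-0.83 and -0.87). The clone of polr1d did not pass the F-test (adjusted p = 0.11). The least alike were c8b (-0.95 for both clones), hint2 (-0.93 and -0.96), cyp2k4 (-0.93, 1rt36f13_b_c07) and sox9 (-0.92, tcay0033.j.13), a transcription factor of Sertoli cells.

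CCT5 resembled genes with high signal in spawning testes. Its nearest were igfbp7 (r = 0.99, an insulin-like growth factor binding protein), acbp (0.98, acyl-CoA binding protein), il13ra2b (0.97, an interleukin receptor), crtam (0.97), inh (0.97) and e1 (0.96), and deviations within groups were related at -0.22 to 0.34. Farthest were josd2 (-0.95, a deubiquitinase), hsp90bb clone 1rt65n14_d_g07 (-0.95, a cytosolic Hsp90) and pfc (-0.94), whose clone did not pass the F-test (adjusted p = 0.39). With CCT5 itself the cct8 clones correlated at -0.57 (1rt36f13_b_c07) and -0.58 (tcay0033.j.13). The CCT5 means of stages IIb (8.09), IIIb (7.97) and V (7.71) and of the fractions (7.21, 6.88 and 6.81) were under the array median. Much of the profile behind these correlations thus lay within the range taken as background, and they were not repeated with the floor. Of all 9021 other clones, 797 (8.83%) had an r over 0.8 with CCT5, compared with 547 (6.06%) for 1rt36f13_b_c07. Among 34 clones whose names begin with tcad0008, as that of CCT5 does, 8 (23.5%) had an r over 0.8 with it, and the median r was 0.31, against -0.14 over all clones. For deviations within groups these medians were -0.03 and -0.01.

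**Figure D4:**
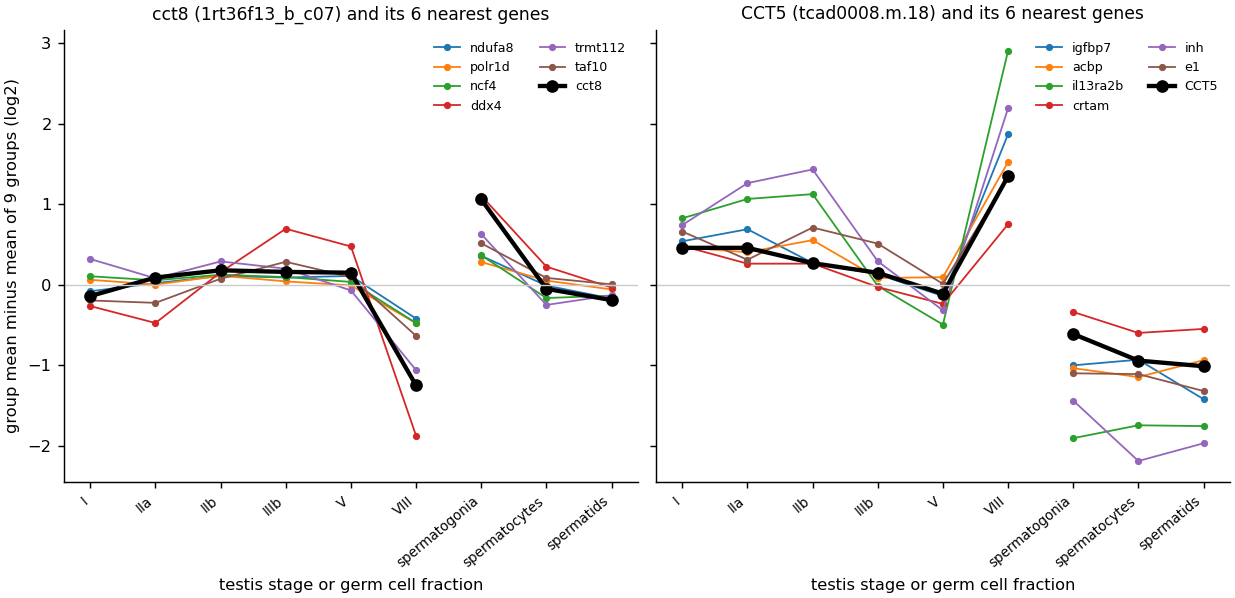
Group means of the log2 signal minus the mean of the 9 groups (vertical axis) by testis stage and germ cell fraction (horizontal axis), for cct8 clone 1rt36f13_b_c07 (left) and the CCT5 clone (right) as thick black lines and for the 6 named genes with the most similar group means as thin lines. The profiles on the left drop in stage VIII and peak in spermatogonia, and those on the right rise in stage VIII and lie below 0 in the fractions. The CCT5 means of stages IIb, IIIb and V and of the fractions are under the array median.

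Other genes of protein folding could be found only by symbol, which 8346 of the 9024 clones lack, so further folding genes may be among the unnamed clones. The paper's own annotation counts more genes of this chaperonin on the array than those followed here. It places most of the genes it counts in its spermatogonial clusters and the rest in somatic ones. Values of those other than cct8 and CCT5 were not analysed here. The lists of further CCT subunits, actins, endoplasmic reticulum folding and other CCT clients matched 0 clones by symbol, and 11 clones of 7 genes were found in all: the prefoldin subunit gene pfdn6, the prefoldin-like pdrg1, the Hsp70 genes hspa8 and hspa8b, the Hsp90 gene hsp90ab1, the collagen chaperone gene hsp47 and the tubulin folding cofactor gene tbca. Of these 11 clones 6 rose and 0 fell in spermatogonia relative to stage I, against 13.4% and 13.2% of all clones, with a median change of 0.47 against 0.03. They were both clones of hsp90ab1 (1.53 for 1rt93e11_a_c06, SE 0.28, adjusted p = 6e-05, and 0.47 for 1rt139i10_c_e05, adjusted p = 0.0029), the 3 clones of hsp47 (1.08, 1.40 and 1.49, adjusted p = 0.00018, 4.2e-05 and 3.1e-07) and hspa8b (1.15, adjusted p = 6e-04). Both hspa8 clones had small changes, of 0.02 and -0.05, and did not pass. Of hsp47, which assists collagen folding, the signal was thus higher in the fraction where the 3 collagen clones were lower. The prefoldin, prefoldin-like and tubulin cofactor clones had changes of 0.13 (pfdn6, adjusted p = 0.66), -0.21 (pdrg1, adjusted p = 0.26) and -0.17 (tbca, adjusted p = 0.61), and none passed.

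In spermatocytes relative to spermatogonia, where the cct8 clones fell by 1.11 and 1.0, most of these clones kept to small changes. Of the 11, 1 rose (pdrg1, 0.36, adjusted p = 0.036) and 1 fell (hsp47 clone 1rt146d15_b_b08, -0.69, adjusted p = 0.0094), with a median of -0.14, against 12% and 14.9% of all clones. Both hsp90ab1 clones had changes of -0.24 and 0.01 (adjusted p = 0.54 and 0.94). In spermatids relative to spermatogonia 1 clone of hsp47 fell (1rt146d15_b_b08, -0.90, adjusted p = 0.0081) and 0 rose, against 11.6% and 9.74% of all clones. Without spermatid replicate 3, 0 of 11 fell. With all arrays 4 of 11 had an unadjusted p under 0.05 in limma, as did 3049 of all 9024 clones. These comparisons share the spermatogonia arrays with the first.

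From stage V to spawning hsp90ab1 and pfdn6 changed in the same direction as cct8. In stage VIII relative to stage V the hsp90ab1 clones fell by 1.77 (1rt93e11_a_c06, adjusted p = 0.00011) and 0.96 (1rt139i10_c_e05, adjusted p = 3.5e-06), pfdn6 fell by 0.80 (adjusted p = 0.0097), and an hspa8 clone, tcag0004.m.01, rose by 0.69 (adjusted p = 0.00019). That made 1 higher and 3 lower of 11 clones, with a median of -0.25, against 18.1% higher and 19.3% lower of all clones with a median of -0.03. The other hspa8 clone, tcaa0002.o.09, had the opposite sign there and did not pass (-0.49, adjusted p = 0.11). In stage V relative to stage I, where neither cct8 clone passed, 3 of 11 rose and 0 fell, against 15.2% and 15.7% of all clones: both hsp90ab1 clones (0.79 and 0.49, adjusted p = 0.047 and 0.0038) and pfdn6 (0.56, adjusted p = 0.045). In stage VIII relative to stage I the hsp90ab1 clones fell by 0.98 and 0.46 (adjusted p = 0.029 and 0.015) and hspa8 clone tcag0004.m.01 rose by 0.46 (adjusted p = 0.011). This made 1 higher and 2 lower, against 11.3% and 12.9% of all clones. Here hspa8 clone tcaa0002.o.09 again had the opposite sign (-0.24, adjusted p = 0.48), and pfdn6 did not pass (-0.24, adjusted p = 0.5). Between stages IIIb and IIb and between stages V and IIIb 0 of 11 passed, with 1 and 0 at an unadjusted p under 0.05. Of all 9024 clones 1773 and 478 had such a p. The tubulin cofactor gene tbca passed in none of the 8 main comparisons.

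A further 6 clones of 5 folding genes were added after the array description had been read. Of these, both hsp90bb clones moved in the direction of hsp90ab1 in spermatogonia relative to stage I (0.53 and 0.74, adjusted p = 0.0051 and 7.3e-05). They also did so in stage VIII relative to stage V (-1.29 and -1.15, adjusted p = 5.1e-07 and 1.5e-06). In spermatids relative to spermatogonia they differed in sign, with 0.57 (1rt65n14_d_g07, adjusted p = 0.012) and -0.25 (tcaa0002.b.14, adjusted p = 0.28). Both values include spermatid replicate 3, which stood apart, and none without it is given here. The reticulum Hsp90 gene grp94 rose by 0.82 in spermatogonia relative to stage I (adjusted p = 0.00058), and calr3a, a calreticulin, fell by 0.91 in stage V relative to stage I (adjusted p = 0.00075). The actin-related gene actr6 fell by 0.53 in stage VIII relative to stage V (adjusted p = 0.014), and the prolyl isomerase gene fkbp2 passed in none of the 8 comparisons.

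**Figure D5:**
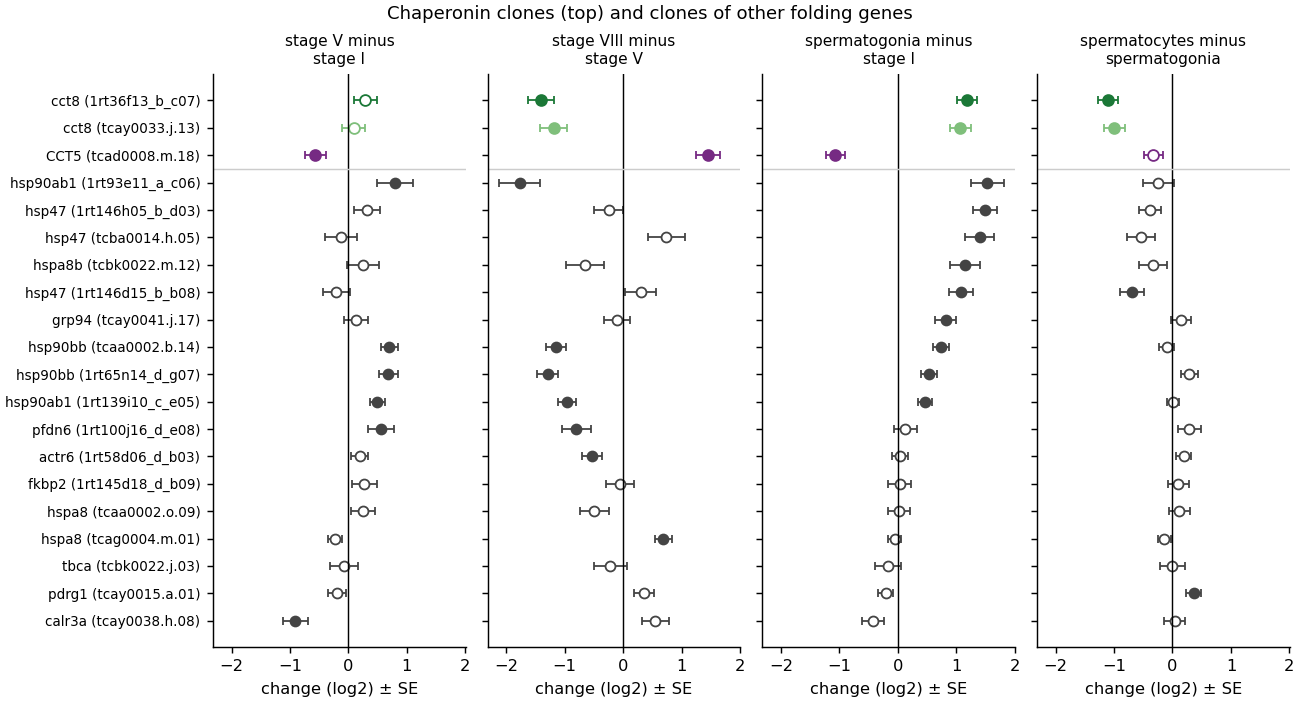
Change in log2 signal with its SE (horizontal axis) in 4 comparisons (panels) for the 3 chaperonin clones (top, coloured) and 17 clones of other folding genes (dark, sorted by their change in spermatogonia minus stage I), with filled points for an adjusted p under 0.05. In spermatogonia minus stage I the cct8 clones and the hsp90ab1, hsp47 and hspa8b clones lie to the right and CCT5 to the left, and only the cct8 clones, 1 hsp47 clone and pdrg1 pass in spermatocytes minus spermatogonia.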

How the data were processed

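The authors hybridised 1 33P-labelled cDNA target per array, divided each spot's signal by its vector signal, multiplied by the median vector signal, and deposited log2 values after quantile normalisation. Of 9216 entries 192 were empty, and 0 columns had no sample. The authors also dropped clones of low vector signal, a filter not applied here. The array description gave 1 symbol to 677 clones, several to 1 and none to 8346. The members, gene lists and tests were chosen with earlier results of these data known.

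A linear model with a mean per group was fitted to all 38 arrays (limma 3.58.1, R 4.3.3; 9 coefficients, prior df 7.3, residual df 29), with Benjamini-Hochberg adjustment over the 9024 clones in each comparison. The F-test was taken at 0.005 and pairs at 0.05. Folds are 2 raised to the log2 change. The difference between the genes was tested by exact permutation of arrays (scipy 1.17.1). The model fit was tested on simulated data. Lists were matched by symbol without regard to case. Genes named were the members, matched list clones past the threshold, and for each member the 6 named genes of highest and the 3 of lowest correlation over the 9 group means; clones named to show values that did not pass were added. Alternatives were array weights, a floor at the array median, fits of only the 2 groups, a trended robust prior, renewed normalisation, a filter on dim clones, a replicate block and leaving out each array. No sequences were used here.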

Additional observations from a re-analysis of the deposited data

How the results depend on the processing

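In the 8 main comparisons, the only ones for which all alternatives were run, each called change of the cct8 clones kept its direction and call. With a floor at the array median, CCT5 no longer passed in spermatogonia minus stage I (-0.15, adjusted p = 0.24) and stage V minus stage I (-0.15, adjusted p = 0.29), and its stage IIIb minus stage IIb was 0.03. Array weights gave 0.33 for 1rt36f13_b_c07 in stage V minus stage I (adjusted p = 0.013, passing), and 0.05 and -0.03 for the cct8 clones in stage V minus stage IIIb. With the replicate number as a block, tcay0033.j.13 had -0.01 in stage V minus stage IIIb, and no call of a member changed. Same-numbered arrays did not deviate together (mean correlation -0.002, lowest -0.4, 9 of 38 arrays nearest to their own number). With 1 array left out, uncalled changes near 0 turned sign: stage IIIb minus stage IIb ran from -0.08 to 0.04 (1rt36f13_b_c07) and -0.42 to 0.06 (CCT5), and stage V minus stage IIIb from -0.08 to 0.06, -0.09 to 0.14 (tcay0033.j.13) and -0.44 to 0.04 (CCT5). CCT5 ran from -0.65 to -0.47 in stage V minus stage I and from -0.56 to -0.29 in spermatids minus spermatogonia. The cct8 minus CCT5 change ran from 0.67 to 0.85 in stage V minus stage I and from -0.18 to 0.18 in stage IIIb minus stage IIb. CCT5 was not tested among clones over the median, which leave it out.

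Counts of the 11 folding clones moved as follows. With array weights 1 was higher in stage IIIb minus stage IIb, 2 in stage VIII minus stage I and 3 in stage VIII minus stage V, and 0, 2, 1 and 5 were lower in spermatids and in spermatocytes minus spermatogonia, stage V minus stage I and stage VIII minus stage V. With only the 2 groups, 0, 1, 2 and 3 were higher in spermatocytes minus spermatogonia, stage IIIb minus stage IIb, stage VIII minus stage I and stage VIII minus stage V, and 0 and 1 lower in spermatids minus spermatogonia and stage VIII minus stage I. With the floor, 0 were higher and 2 lower in spermatocytes minus spermatogonia, 1 higher in stage V minus stage I and 1 lower in stage VIII minus stage I. The block left 1 lower in stage VIII minus stage I, and the filter 0 higher in spermatocytes minus spermatogonia. With 1 array left out, 0 to 1 were higher and 1 to 2 lower in spermatocytes minus spermatogonia, 0 to 3 lower in spermatids minus spermatogonia, 1 to 3 higher in stage V minus stage I, 0 to 1 higher and 1 to 2 lower in stage VIII minus stage I, and 1 to 2 higher in stage VIII minus stage V. The 6 higher in spermatogonia minus stage I stayed 6 whichever array was left out, and were 5 to 6 under the other alternatives. The trended robust prior gave 2 higher in stage V minus stage I. In stage VIII minus stage V, 4 were lower with only the 2 groups, and 3 to 4 with 1 array left out.

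Over all clones, array weights called 6118 across the groups (3989 without), 3929 in spermatogonia minus stage I (2402), 4655 in stage V minus stage I (2784), 3546 in stage VIII minus stage I (2189), 2005 in stage IIIb minus stage IIb (635), 555 in stage V minus stage IIIb (0) and 1083 in spermatids minus spermatogonia (1926). Fits of the 2 groups called 856 in the last and 153 in stage V minus stage IIIb. The floor called 1606 in spermatocytes minus spermatogonia (2428) and 16 in stage V minus stage IIIb. Where dim clones were left out, fewer were tested, and 2656 varied, 1821 passed in stage V minus stage I and 2213 in stage VIII minus stage V (3378 without the filter). Without spermatid replicate 3, 679 passed in spermatids minus spermatogonia, and with 1 array left out 227 to 761 passed in stage IIIb minus stage IIb (lowest without stage IIIb replicate 2) and 0 to 32 in stage V minus stage IIIb. The cause of the other shifts was not tested.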
